A study of Mus musculus with 7 samples.

Results

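Angiotensin II is a peptide hormone cut in steps from angiotensinogen, the secreted precursor encoded by Agt. Renin releases angiotensin I, and angiotensin converting enzyme (Ace) trims it to angiotensin II, which aminopeptidase A (Enpep) shortens further. The hormone acts through G protein coupled receptors: the type 1 receptor, encoded in the mouse by the paralogs Agtr1a and Agtr1b, which signals to phospholipase C and calcium, and the type 2 receptor Agtr2, which often opposes it. The system is best known for control of blood vessel tone and salt balance, and local versions of it are known in many tissues.

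These 6 genes were read on Affymetrix arrays of sorted mouse mammary cells, out of 17096 genes that had a probe set annotated to a single gene symbol. The set was chosen by function around Agtr1a, and Agtr1a itself was picked from its large excess in luminal over basal cells in these same arrays. Luminal minus basal values of the 6 genes are therefore a description and were given no test. Each of the 6 was represented by 1 probe set, a group of short probes against one transcript, so agreement between probe sets of a member could not be examined. The sequences of the probes were not analysed here, which bears on the paralogs Agtr1a and Agtr1b.

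There were 7 arrays. Luminal cells (2 arrays) were YFP+ cells of K8CREERT2/RosaYFP mice, in which tamoxifen starts a Cre recombinase under the keratin 8 promoter and so marks luminal cells with YFP, taken 8 weeks after tamoxifen. Basal cells (2 arrays) were the YFP+ cells of K5CREERT2/RosaYFP mice, marked through the keratin 5 promoter and taken at the same time. Embryonic cells (3 arrays of 2000, 2000 and 813 cells) were CD49fHi Lgr5Hi cells of female Lgr5-IRES-GFP embryos at embryonic day 14, each array a pool from 1 litter. The labels mark the luminal and basal arrays as a reanalysis, give no age for those mice and name an embryonic tissue for them too; these 4 arrays are called adult here. The labels call the embryonic arrays biological replicates but do not say if each adult array came from another animal. The p-values therefore speak to array-to-array spread alone, which may be technical for the adults. This spread was pooled over all 3 groups, so SEs of luminal minus basal rest on the embryonic arrays too.

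The layer labels were matched by markers: basal arrays had higher Krt5, with log2 intensities of 12.03 and 12.15 against 9.13 and 9.56 in luminal arrays (limma adjusted p = 0.0106). In all, 7 of 12 measured luminal markers were higher in luminal and 8 of 9 basal markers higher in basal cells. A gene was said to have changed, here and throughout, when it differed by 2-fold or more with a Benjamini-Hochberg adjusted p below 0.05 in limma. Krt8, whose promoter marked the luminal cells, had a difference of 0.40 ± 0.15 (SE) and did not pass (limma adjusted p = 0.121). Itga6, which encodes CD49f, had log2 intensities of 9.62 to 10.10 in embryonic arrays, and Lgr5 had 7.18 to 8.53 there, between the luminal (6.11 and 6.14) and basal arrays (9.79 and 10.25). Some listed markers of other cell types had signal above background, which alone does not show that those cells were present. Of 9 leukocyte markers 4 had a mean above the background level, among them Cd74 (6.14 to 7.71) and Cd68 (6.98 to 7.56), while Ptprc was at most 3.18. Of 7 adipocyte markers 4 did, among them Fabp4 (6.02 to 8.30) and Lipe (6.22 to 6.98), while Adipoq was at most 3.74. The background level, a log2 value of 5.52, was set so that 95% of 139 probe sets for genes known from other organs fell under it. Of 13 endothelial markers 8 had a mean above it, among them Pecam1 (5.63 to 8.69), while Tek was at most 5.47. Of 12 fibroblast markers 8 did, among them Col1a1 (8.58 to 10.93), while Pdgfra was at most 3.80. In bulk samples such as these, fewer cells of a type and less RNA per cell cannot be told apart.

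The promoter table of RefSeq (GRCm38.p6) held 5 of the 6 genes, and Agtr1a had no entry. The upstream sequences of Ace and Agtr1b are shown because Ace was the 1 member above background on all 7 arrays, while Agtr1b is the paralog of the receptor gene that differed and stayed below background on all of them. Each is the 250 bases before an annotated start, 5′ to 3′, with the letters TATAAA, read on either strand, in capitals (TTTATA where it lies on the opposite strand). Ace has an entry at the start of the gene, chr11:105967698-105967947 (plus strand), and one inside it, chr11:105974939-105975188 (plus strand). Agtr1b lies on the minus strand at chr3:20367178-20367427.
Ace, first start: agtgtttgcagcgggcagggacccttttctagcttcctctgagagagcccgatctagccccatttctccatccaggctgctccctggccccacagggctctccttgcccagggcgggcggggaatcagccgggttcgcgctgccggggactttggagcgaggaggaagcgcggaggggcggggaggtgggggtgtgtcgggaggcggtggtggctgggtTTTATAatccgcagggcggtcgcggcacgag
Ace, internal start: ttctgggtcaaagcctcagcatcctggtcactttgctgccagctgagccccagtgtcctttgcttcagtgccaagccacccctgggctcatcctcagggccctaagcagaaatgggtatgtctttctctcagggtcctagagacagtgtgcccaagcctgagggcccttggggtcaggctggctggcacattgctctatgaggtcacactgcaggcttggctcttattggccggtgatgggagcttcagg
Agtr1b: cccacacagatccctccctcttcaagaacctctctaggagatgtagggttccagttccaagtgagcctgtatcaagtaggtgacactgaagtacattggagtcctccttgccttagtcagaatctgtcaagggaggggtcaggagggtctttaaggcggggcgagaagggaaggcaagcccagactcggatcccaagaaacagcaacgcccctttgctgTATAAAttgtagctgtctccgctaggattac
The core promoter letters TATAAA were found 31 bases before the start in Agtr1b and, on the opposite strand, 31 bases before the first start in Ace. They were found in 4 of the 6 windows of the 5 genes and in 12.4% of 32851 windows of the same length. The letters GGGCGG, a GC box, occurred 4 times before the first Ace start and in none of the other 5 windows, against 32.7% of all windows with at least 1. A match is a string of letters and not a measured site. Ace had 1 probe set, and which of its starts that probe set reads was not examined. The internal start is known for the form of the enzyme made in developing sperm.

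Agtr1a was bright in luminal cells and at background in basal cells. Its log2 intensity was 7.74 and 7.89 on the luminal arrays and 4.85 and 4.93 on the basal arrays, with 5.42, 5.77 and 5.87 on the embryonic arrays. As deposited intensities these were 213 and 237 in luminal, 28.8 and 30.5 in basal, and 42.9, 54.6 and 58.7 in embryonic cells. Both luminal arrays were above every other array, both basal arrays were below every other array, and no group overlapped another. Embryonic values of most genes lay near the mean of luminal and basal cells, so the embryonic place between them is not read. The mean was 7.81 ± 0.11 (SD, n = 2) in luminal and 4.89 ± 0.06 (SD, n = 2) in basal cells. The difference of 2.92 ± 0.16 (SE) on the log2 scale, 7.58-fold as measured, ran from 2.81 to 3.04 over the 4 pairings of a luminal with a basal array. Since the basal value was not above background, the luminal level is given as at least 4.88-fold higher, which sets it against the background level. This difference was the one that picked the gene: it ranked 1 of 17096 genes, with Foxa1 (2.71 ± 0.25) and Slc35f3 (2.69 ± 0.20) next, and nothing is supported with it.

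**Figure D1:**
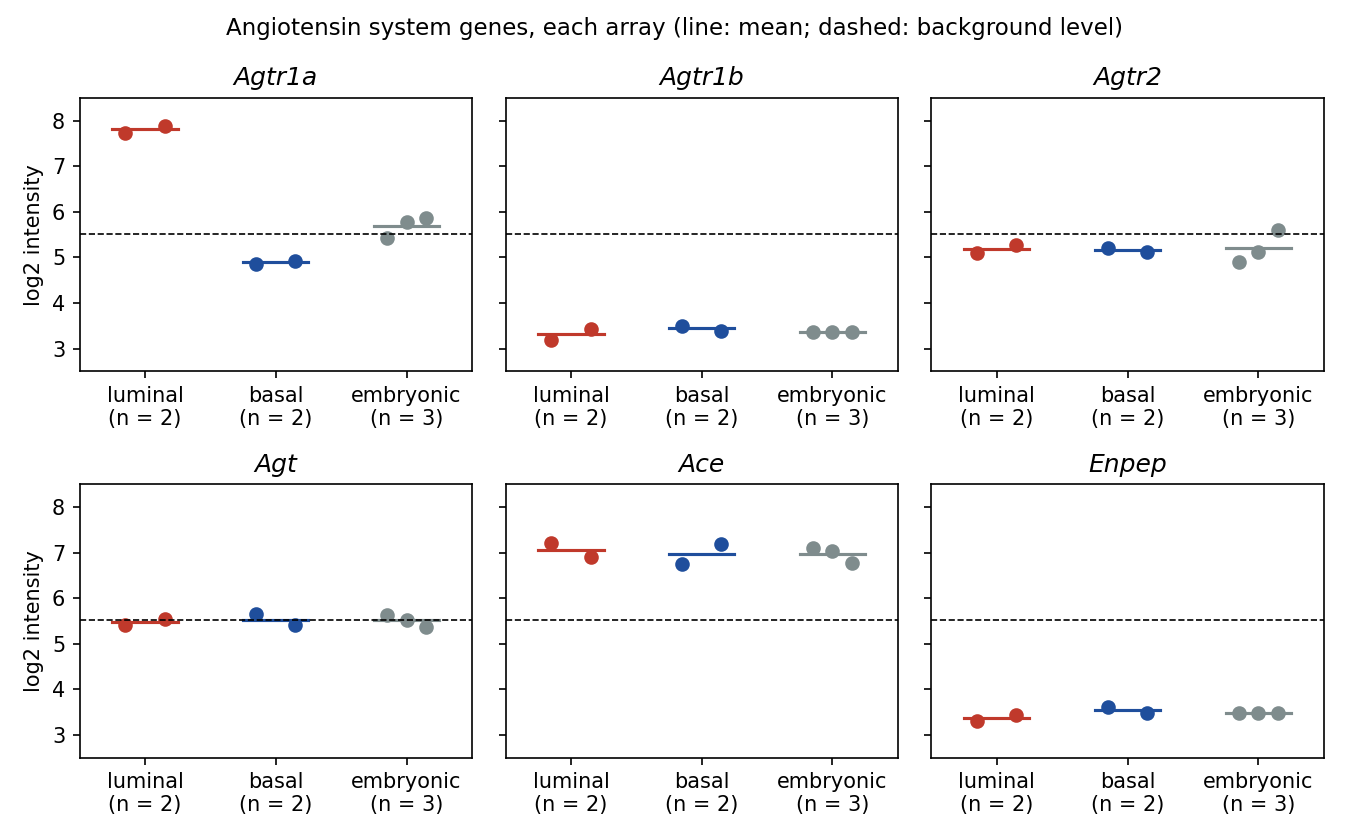
Log2 intensity of the 6 genes on each array (points) in luminal (n = 2), basal (n = 2) and embryonic cells (n = 3), with the group mean as a line and the background level of 5.52 dashed. Agtr1a is at 7.74 and 7.89 in luminal cells and 4.85 and 4.93 in basal cells, while Agtr1b and Enpep lie below the dashed line on all arrays and Ace above it.

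The other receptor genes showed no such excess. Agtr1b had log2 intensities of 3.18 and 3.44 in luminal, 3.50 and 3.39 in basal and 3.37 on each of the 3 embryonic arrays. All 7 values lay below the background level, and the luminal and basal arrays overlapped. The difference, luminal minus basal, was -0.14 ± 0.11 (SE). Agtr2, the type 2 receptor gene, had 5.09 and 5.27 in luminal, 5.20 and 5.12 in basal, and 4.91, 5.11 and 5.61 in embryonic cells. The luminal and basal arrays overlapped (0.02 ± 0.22), and embryonic replicate 3, made from 813 cells, was the 1 array of 7 above background. A small difference between values at background does not show equal expression.

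Among the ligand precursor and the enzymes, only Ace was clearly above background. Agt had 5.40 and 5.54 in luminal, 5.65 and 5.41 in basal, and 5.63, 5.53 and 5.37 in embryonic cells. These values straddled the background level, with 4 of 7 arrays just above it, and the groups overlapped (-0.06 ± 0.13). Ace, the converting enzyme gene, had 7.21 and 6.91 in luminal, 6.74 and 7.19 in basal, and 7.10, 7.03 and 6.78 in embryonic cells. The replicates of Ace differed more from each other, by 0.31 between luminal and 0.45 between basal arrays, than the groups did (0.09 ± 0.20). Enpep, the aminopeptidase gene, had 3.30 and 3.44 in luminal, 3.60 and 3.48 in basal, and 3.48 on each embryonic array, all below background. Its luminal arrays lay under its basal arrays by a difference of -0.17 ± 0.09, so the groups did not overlap, but at a level where order is not read.

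Luminal and basal arrays thus did not overlap for Agtr1a and Enpep, 2 of the 6 genes, against 59.2% of all genes. By the rule for changed genes, 5.49% of all genes changed, 2.87% higher in luminal and 2.63% higher in basal cells; nothing is read from the members against this share, because the contrast was used to pick Agtr1a.

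The genes whose profile was most like that of Agtr1a were found by Euclidean distance between log2 profiles over the 7 arrays, each centred on its own mean. Foxa1, a transcription factor gene of hormone receptor positive luminal cells, was nearest (distance 0.42, Pearson r = 0.992). It had 7.28 and 7.21 in luminal, 4.31 and 4.76 in basal, and 4.87, 5.47 and 5.47 in embryonic cells. Slc35f3, of the family of solute carriers (0.61), and Slc25a35, of the mitochondrial carrier family (0.61), followed. After these came Mlph, which encodes the melanosome transport adaptor melanophilin (0.66), the kallikrein gene Klk10 (0.68), the synaptotagmin gene Syt7 (0.69), Bex1 (0.85) and Tlcd4 (0.89). Pearson correlations of the 8 genes with Agtr1a ran from 0.963 to 0.992. The measure is a description: all points come from the same 7 arrays in 3 groups, and a large luminal excess is what brings a gene near. Foxa1, Slc35f3, Mlph and Bex1 were among the 8 nearest on the 4 adult arrays alone too. The hormone receptor genes Esr1 (10.09 and 9.94 in luminal, 8.37 and 8.86 in basal cells) and Pgr (8.24 and 8.30 against 6.15 and 6.63) were higher in luminal cells as well (limma adjusted p = 0.0284 and 0.0106). So were Elf5 (6.50 and 6.82 against 4.92 and 5.05) and Kit (5.32 and 5.52 against 3.99 and 4.05), which are not hormone receptor genes (limma adjusted p = 0.00958 and 0.0282). The luminal mean of Kit, 5.42, lay below background. These bulk arrays do not separate kinds of luminal cell, and which of them carried Agtr1a was not tested.

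**Figure D2:**
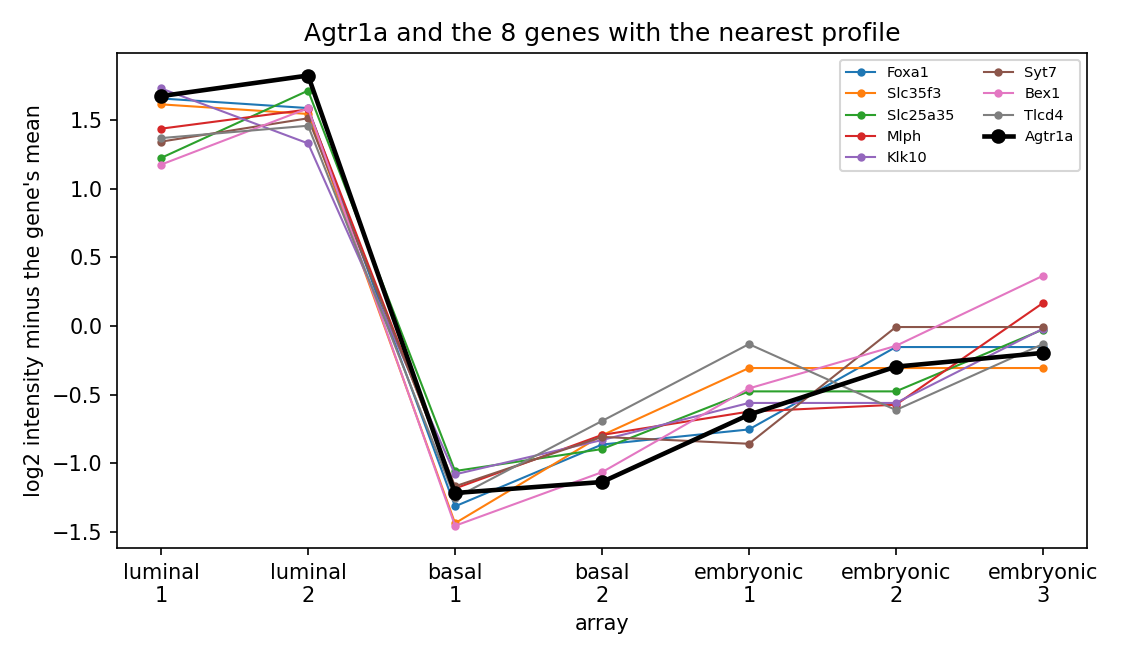
Log2 intensity of Agtr1a (black) and of the 8 genes with the nearest profiles on each of the 7 arrays, each gene centred on its own mean; lines join the values of a gene and imply no order of arrays. All 9 profiles are high on the luminal arrays, low on the basal arrays and between these on the embryonic arrays, except that Syt7 was lower on embryonic replicate 1 (5.05) than on basal replicate 2 (5.10).

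Embryonic cells were set against the mean of luminal and basal cells. In these arrays this contrast was not free of the choice of Agtr1a: markers of both layers, which differ between luminal and basal cells, had negative values, with a median of -0.32 for luminal and -0.41 for basal markers against 0.01 over all genes. Foxa1, next to Agtr1a in luminal excess, was at -0.62. The value of Agtr1a is therefore a description. Agtr1a had a negative difference (-0.66 ± 0.12 SE, n = 3 and 4 arrays, 1.58-fold lower) but did not pass (unadjusted p = 0.00145, limma adjusted p = 1). The other members had differences of -0.04 ± 0.15 for Ace, -0.01 ± 0.08 for Agtr1b, 0.01 ± 0.10 for Agt, 0.02 ± 0.07 for Enpep and 0.04 ± 0.17 for Agtr2, each with a limma adjusted p = 1. None of the 6 passed, where 0.00585% of all genes did. Before adjustment limma gave 86 of 17096 genes a p under 0.05, a smaller share than that threshold itself. Agtr1a was among them, but nothing is read from this, because the contrast was not free of its choice. The 1 gene that passed was Lcn2 (-2.39 ± 0.07, limma adjusted p = 0.000371), named after its value was seen.

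**Figure D3:**
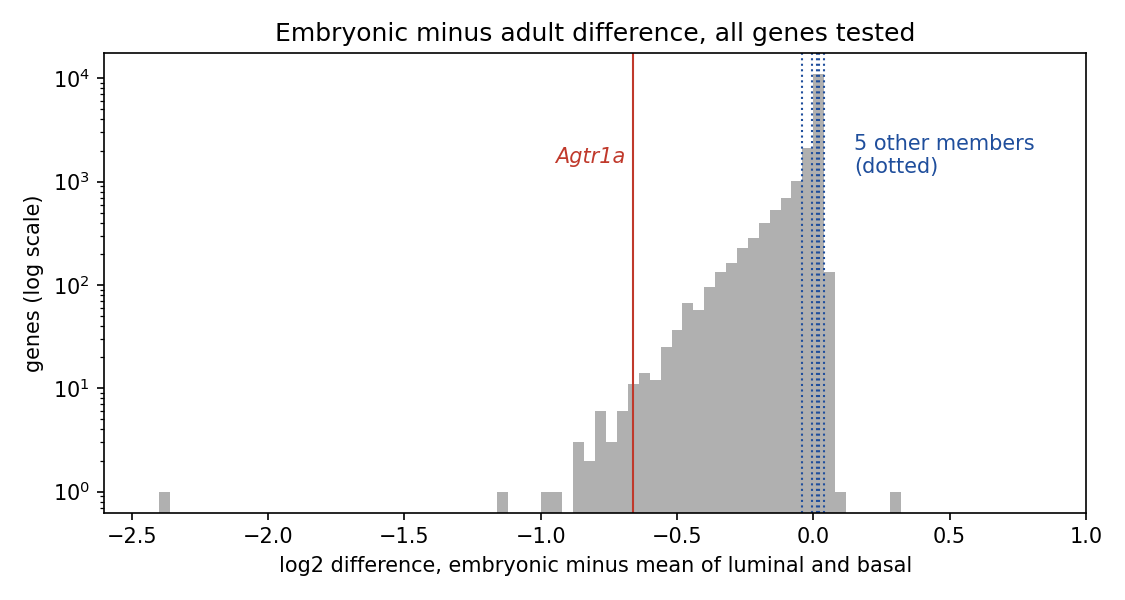
Histogram of the log2 difference, embryonic minus the mean of luminal and basal cells, over 17096 genes, with the number of genes on a log axis. Agtr1a (solid line) is at -0.66 and the 5 other members (dotted) lie between -0.04 and 0.04.

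The embryonic columns limit what this contrast can show. Over all genes the difference had an SD of 0.10, with the 5th percentile at -0.24 and the 95th at 0.03. The embryonic values of most genes thus lay close to the mean of luminal and basal cells. A place between the layers is therefore not read as an embryonic level, for Agtr1a or any other gene. Of all probe sets, 37.6% had the same value in embryonic replicates 1 and 2. Agtr1b and Enpep had 1 identical value on all 3 embryonic arrays, and Agtr1a, Agtr2, Agt and Ace had 3 distinct ones. The luminal minus basal SEs of Agtr1b and Enpep thus rest in part on arrays without spread. Set on a scale from 0 at the basal to 1 at the luminal mean, Agtr1a stood at 0.18, 0.30 and 0.34 on the embryonic arrays. The medians of the other 489 genes that were higher in luminal cells were 0.32, 0.34 and 0.37. Agtr1a was thus below these medians on each array, by the most on replicate 1, and no test of this was made. The 489 genes were chosen by luminal excess in these same arrays. A low value on replicate 1 was not particular to Agtr1a. Foxa1 (4.87) and Syt7 (5.05) also lay near their basal means there (4.54 and 4.92). Slc35f3 (5.86), Bex1 (7.03) and Tlcd4 (5.67) lay further from theirs (5.05, 6.22 and 4.83).

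Of 22 other listed genes of the angiotensin system, 17 had a single-gene probe set and 1 changed (5.88%), a share near the 5.49% of all genes. Mme, which encodes neprilysin, a peptidase that cleaves angiotensin peptides, was higher in basal cells: 7.69 and 7.04 in luminal, 8.66 and 8.80 in basal arrays (-1.36 ± 0.27, limma adjusted p = 0.0285). That call was lost without any 1 of the 4 adult arrays. The prorenin receptor gene Atp6ap2 was bright on all arrays, at 10.38 and 10.18 in luminal and 10.08 and 10.32 in basal cells (0.08 ± 0.14), and did not pass. Mas1, the receptor gene for the angiotensin fragment known as angiotensin 1-7, lay between 3.47 and 3.58 on all 7 arrays, below background. The renin gene Ren1 was not analysed here. The list's median difference was -0.02, against 0.02 over all genes.

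2 partners of the type 1 receptor, named after their values were seen, had positive differences that did not pass. Agtrap, which binds the receptor tail and promotes its internalisation, had 6.56 and 6.46 in luminal and 5.67 and 6.23 in basal cells (0.56 ± 0.20, limma adjusted p = 0.119), and its second probe set differed by 0.75. Arap1, a regulator of small GTPases, had 6.46 and 6.54 against 5.56 and 6.14 (0.65 ± 0.19, adjusted p = 0.0773). In both genes the luminal arrays lay above the basal arrays. Luminal and basal arrays also did not overlap in 70.6% of the other angiotensin system genes and 59.2% of all genes, so nothing is read from this. The peptidase gene Thop1 (0.69 ± 0.14, limma adjusted p = 0.0296) and the cathepsin D gene Ctsd (0.54 ± 0.13, adjusted p = 0.0498) met the adjusted p but stayed under 2-fold, and a second, dimmer probe set of Thop1 differed by -0.15.

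Genes that act downstream of the type 1 receptor moved in both directions. Of 29 measured, 1 was higher in luminal and 2 in basal cells (10.3% changed, against 5.49% of all genes; median -0.02). Ptk2b, the calcium-dependent tyrosine kinase gene also known as Pyk2, was higher in luminal cells, with 7.56 and 7.43 against 6.02 and 6.35 (1.31 ± 0.27, limma adjusted p = 0.0323). Rgs2, a regulator that shuts off Gq signalling, was higher in basal cells, with 10.05 and 9.98 against 8.75 and 9.04 (-1.12 ± 0.22, limma adjusted p = 0.0298). With the mean over its probe sets Rgs2 was at -0.93 and did not pass. Nox4, an NADPH oxidase gene, was higher in basal cells (-1.50 ± 0.18, limma adjusted p = 0.0113), but both group means, 3.73 and 5.23, lay below background and the size is not exact; with 32 added to the intensity it was at -0.62 and did not pass. The G protein genes Gnaq (-0.33 ± 0.17) and Gna11 (0.08 ± 0.12), which couple the receptor to phospholipase C, were bright in both layers and did not pass. With either luminal array left out, 0 of the 29 changed in limma; without basal replicate 1 or 2, Nox4 alone did.

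**Figure D4:**
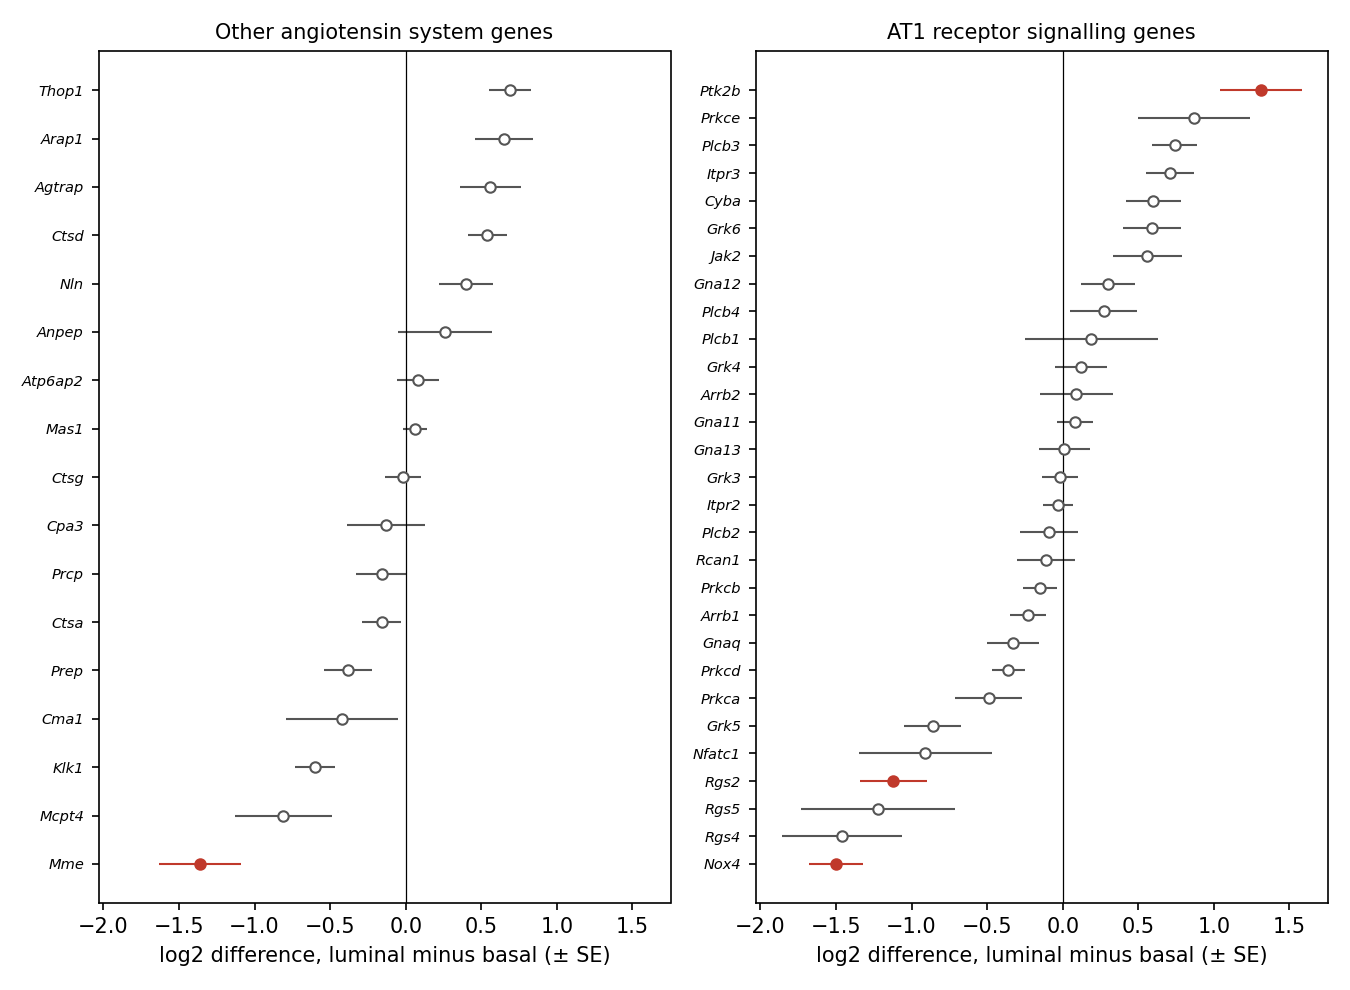
Log2 difference, luminal minus basal, with its SE, for 17 other angiotensin system genes (left) and 29 genes of type 1 receptor signalling (right); filled red points passed (limma adjusted p under 0.05 and at least 2-fold). Mme, Rgs2 and Nox4 lie on the basal side and Ptk2b on the luminal side.

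Among 11 measured genes of aldosterone synthesis and its targets, the salt-regulating arm downstream of angiotensin II, 2 changed, both higher in luminal cells. That was 18.2%, against 5.49% of all genes in either direction and 2.87% higher in luminal cells, and the list's median was 0.24. Scnn1a, a subunit gene of the epithelial sodium channel, had 5.82 and 5.46 in luminal and 4.30 and 4.58 in basal cells (1.20 ± 0.25, limma adjusted p = 0.0315), with the basal arrays and luminal replicate 2 below background. Atp1b1, a sodium pump subunit gene, had 10.22 and 9.75 against 8.59 and 9.11 (1.14 ± 0.26, limma adjusted p = 0.0412). Both calls were lost without any 1 of the 4 adult arrays, and Atp1b1 was also lost without embryonic replicate 1 or 2. The aldosterone synthesis genes Cyp11b1 (-0.35) and Cyp11b2 (-0.12) did not pass and lay below background in both layers. Nr3c2, the mineralocorticoid receptor gene, named after its values were seen, did not pass (0.00 ± 0.12). Its mean of 5.45 in luminal and in basal cells lay below background, with luminal replicate 2 (5.61) above it. The part of aldosterone in the values of Scnn1a and Atp1b1 was not tested. Of 24 measured genes of other vasoactive peptide systems, 1 changed (4.17%, against 5.49% of all genes; median -0.35). Npr1, a natriuretic peptide receptor gene, was higher in basal cells, at 5.84 and 6.30 against 4.34 and 4.60 (-1.60 ± 0.25, limma adjusted p = 0.0192), with the luminal values below background. That call, too, was lost without any 1 of the adult arrays. The endothelin genes Edn1 (0.97 ± 0.29) and Edn2 (-0.17) did not pass.

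Markers of vascular and stromal cells, which are known to express angiotensin receptors and enzymes, also differed in level between the arrays, and their part in the values of Agtr1a was not tested. Over all genes 5.49% changed and 5352 of 17096 had an unadjusted p under 0.05. Of 12 mural cell markers (pericytes and vascular smooth muscle) 1, Mcam, was higher in basal cells (-1.43 ± 0.31, limma adjusted p = 0.0372), and the list's median was -0.52; Notch3 (0.69) and Foxs1 (0.32), which did not pass, had positive differences. The mean level of the mural list was 5.44 and 5.71 on luminal, 5.84 and 6.22 on basal and 5.62 to 5.82 on embryonic arrays. Of 13 endothelial markers 0 changed in limma, with 10 at an unadjusted p under 0.05; the median was -1.25, and the mean level ran from 5.61 and 6.23 in luminal to 6.67 and 7.28 in basal arrays. Among 12 fibroblast markers, 3 passed on the basal side (median -1.04), with a mean level of 6.54 and 7.17 in luminal and 7.72 and 7.97 in basal arrays. Luminal replicate 2 was above luminal replicate 1 in each of these 3 lists, and Agtr1a was also higher on it, by 0.15. The mean levels of the 3 lists were highest on the basal arrays, where Agtr1a was lowest (4.85 and 4.93). Rgs5 is in both the mural and the receptor signalling list. The part of these cells in the values of Mme, Rgs2, Nox4 and Npr1, which also lay on the basal side, was not tested.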

How the data were processed

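RNA of the sorted cells was amplified and hybridised to Affymetrix mouse arrays, per the labels' protocols. Each deposited value is a linear intensity of 1 probe set; RMA and affy are named in the submitters' processing notes, and versions, settings and any adjustment between sets of arrays are not given in the sources used here. Log2 values of the deposited intensities were used. Of 45033 probe sets (104 controls and 4 without values left out), 28895 had 1 gene symbol, and the one with the highest mean stood for each of 17096 genes. Limma (version 3.58.1, R 4.3.3) fitted 3 group means over 7 arrays with eBayes (4 residual degrees of freedom), with Benjamini-Hochberg adjustment over all genes, and was tested on simulated data. The small number of arrays limits precision.

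The members and lists were chosen with earlier results of these data known. Named in each list were up to 4 changed genes per direction and 2 that did not pass, in list order, with Ren1, Mas1 and Atp6ap2; others are marked where named, and 1 gene of the rule is not reported here. Marker lists were luminal, basal, mural, endothelial, fibroblast, adipocyte and leukocyte genes; 0 of 7 adipocyte and 0 of 9 leukocyte markers changed in limma, with 1 and 2 at an unadjusted p under 0.05. Promoter windows came from RefSeq (GRCm38.p6). Alternatives varied the probe set, normalization, offset, prior, replicate block, dim genes and arrays. Figures used matplotlib 3.10.9 in Python 3.11.15.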

Additional observations from a re-analysis of the deposited data

How the results depend on the processing

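The Agtr1a difference, luminal minus basal, kept its direction under all 15 alternatives (2.06 to 3.00); it was 2.06 with 32 added to the intensity before log2, which shrinks differences of dim values, and at least 2.85 under the other 14. Embryonic minus adult, Agtr1a ran from -0.75 to -0.53 and passed under none of 14. With the offset, 447 of all genes changed against 939, and 0 vasoactive and 0 aldosterone genes. The largest-variance probe set and the mean over probe sets each gave 2 vasoactive genes. Among genes above background, 0 vasoactive genes and 1 aldosterone gene changed; with embryonic replicates 1 and 2 averaged, 1 aldosterone gene did. Of the receptor signalling genes, 2 changed with the mean over probe sets (Rgs2 lost, -0.93) and 2 with the offset (Nox4 lost, -0.62). The cause of these moves was not tested. Leaving out 1 array at a time gave 60 (without luminal replicate 1) to 1178 (without embryonic replicate 3) genes for luminal minus basal, 0 to 1 other angiotensin genes, 0 to 4 receptor signalling genes, 0 to 1 vasoactive genes, 0 to 2 aldosterone genes and, for embryonic minus adult, 1 to 3 genes; where 1 array was left in a group, its spread was taken from the rest. Replicate numbers did not pair the luminal and basal arrays (correlation of deviations 0.08). With the replicate block 5 receptor signalling genes changed against 3, Rgs4 (-1.46) and Rgs5 (-1.22) added. A background level without fibrinogen genes, chosen after seeing the data, was 5.41, which put Agtr1a above it on 5 arrays and at least 5.27-fold higher in luminal cells. Levels near background limit what Agtr1b, Agtr2, Agt and Enpep can show.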

Other observations

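Probe sets of the kallikrein gene Klk1, whose product can act on kinin and angiotensin precursors, disagreed in sign. The brightest differed by -0.60 (5.89 in luminal, 6.48 in basal cells), and the other 2, both below background, by 0.35 and 0.53. The single value of Klk1 is therefore not read as a direction.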
